A study of Homo sapiens with 6 samples.

Results

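Aldehydes, alcohols, ketones and sugars are oxidised or reduced in liver cells by a few enzyme families: the aldehyde dehydrogenases (ALDH), the alcohol dehydrogenases (ADH), the aldo-keto reductases (AKR), and the carbonyl and xylulose reductases (CBR, DCXR). The 37 genes of these families in a list named by family were looked up in a count table of 25071 genes. Values were found for 36: 17 ALDH, 5 ADH, 10 AKR and 4 carbonyl or xylulose reductase genes. ADH1A was not analysed here. The members were listed by family and not by how they changed, but with results of these data known.

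The data were RNA-seq counts from 6 libraries of PLC/PRF/5, an established human hepatoma line. In 3 libraries the cells had received a control vector. In the other 3 they had received a plasmid that overexpresses ARD1, the older name of NAA10, which encodes a catalytic subunit that acetylates protein N-termini. All cells were harvested 48 hours after transfection. The sources used here do not give the plasmid's promoter or the share of cells that took it up, and the comparison asks which transcripts differed with ARD1. Nothing in the labels ties the 3 libraries of a group to separate cultures. P-values therefore describe only how much these libraries varied, and that variation may be technical.

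As background, ALDH enzymes oxidise aldehydes to acids with NAD+ or NADP+, and ADH enzymes interconvert alcohols and aldehydes with NAD+. AKR and CBR enzymes mostly run the other way, reducing aldehydes and ketones to alcohols with NADPH. In liver they handle ethanol, retinoids, steroids, bile acids, amino acid breakdown products, and the reactive aldehydes that arise when lipids are peroxidised. Several AKR genes and CBR genes are known targets of the transcription factor NRF2, and AKR1B10 is known for its high level in many liver tumours.

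Library totals ran from 21857327 to 25011357 counts, and 3 counts correspond to 0.120 to 0.137 CPM, the counts of a gene set relative to its library's total. CPM values below are scaled by TMM, a method that puts libraries on a common scale. NAA10 was at 35.6, 32.2 and 36.2 CPM in control replicates 1 to 3 and 355, 400.2 and 294 CPM in ARD1 replicates 1 to 3 (log2 fold change 3.34, SE 0.107, adjusted p = 3.53e-12). Markers of hepatocytes were uneven, with albumin (ALB) at 315 CPM in the controls and the apolipoprotein gene APOA1 and transthyretin gene TTR under 0.5 CPM. Of 9 tested hepatocyte markers 5 fell (55.6%) and 3 rose (33.3%), where 32.2% and 32.4% of all genes tested did. ALB (-3.12) and transferrin (TF, -3.22) were among the former, SERPINA1 (2.0004) and HNF4A (0.25) among the latter. SERPINA1 was low in both groups, at a mean of 0.535 CPM in the controls and 2.17 CPM with ARD1. Summed over 11 hepatocyte markers the level was 872 to 902 CPM in the control libraries and 321 to 343 CPM in the ARD1 libraries. Summed over 12 markers of endothelial, fibroblast, immune and biliary cells it was 648 to 782 CPM and 211 to 223 CPM, of which the biliary keratin KRT19 was the largest part. Of 10 tested, 7 fell (70%) and 3 rose (30%), beside the same 32.2% and 32.4% of all genes tested. The endothelial cadherin CDH5 went from 33.1 ± 2.44 to 0.0677 ± 0.0836 CPM and the collagen COL3A1 from 28.2 ± 1.203 to 1.03 ± 0.532 CPM. PECAM1 went from 32.7 ± 4.13 to 57.7 ± 3.22 CPM and VWF from 0.0299 ± 0.0518 to 1.404 ± 0.311 CPM (SD, n = 3). TTR was at 0 in all 3 ARD1 libraries, no marker was at 0 in all 6, and their part in the results below was not tested. In bulk RNA, fewer cells of a kind and less RNA per cell cannot be told apart.

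Promoter sequence is shown for 6 genes because it shows what neighbouring members share and which members hold a searched motif, and the 6 were chosen after values and matches were seen. Sequences are RefSeq reference sequence (GRCh38.p14), 5′ to 3′ along the gene's own strand, and give the 250 bases before the RefSeq start. The gene coordinates given further below come from GENCODE, which places most of these genes' outer ends differently. By those coordinates the windows of ADH1B, ADH1C and AKR1C2 lie inside the gene. The windows of AKR1C1 and CBR1 lie partly inside it, and only that of AKR7A2 lies wholly before it. Which starts these cells used was not tested. AKR1C1 and AKR1C2 lie in 1 cluster on chromosome 10 and took many of the members' counts. The 250 bases before their starts were 96.5% identical, with 245 identical bases, 1 mismatch and 8 bases without a partner in the alignment. Capitals mark bases that differ or have no partner.
AKR1C1 (chr10:4963165-4963414, plus strand): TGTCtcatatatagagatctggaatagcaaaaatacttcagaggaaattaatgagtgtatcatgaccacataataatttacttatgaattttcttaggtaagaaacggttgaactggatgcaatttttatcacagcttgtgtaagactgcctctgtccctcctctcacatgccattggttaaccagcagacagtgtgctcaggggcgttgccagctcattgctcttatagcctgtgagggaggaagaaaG
AKR1C2 (chr10:5003858-5004107, minus strand): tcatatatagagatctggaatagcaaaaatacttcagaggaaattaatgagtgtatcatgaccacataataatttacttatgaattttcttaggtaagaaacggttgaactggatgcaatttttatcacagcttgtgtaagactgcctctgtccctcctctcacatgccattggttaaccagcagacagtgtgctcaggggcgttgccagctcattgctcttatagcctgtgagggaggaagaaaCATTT
ADH1B and ADH1C are neighbours on chromosome 4, with 80.3% identity over the same window. Both hold CACGTG at position -69 relative to the start, shown in capitals. CACGTG reads the same on both strands, so 1 site gives 2 overlapping matches to the letters ACGTG. Those letters are the core of the hypoxia response element, and what binds here was not tested.
ADH1B (chr4:99321402-99321651, minus strand): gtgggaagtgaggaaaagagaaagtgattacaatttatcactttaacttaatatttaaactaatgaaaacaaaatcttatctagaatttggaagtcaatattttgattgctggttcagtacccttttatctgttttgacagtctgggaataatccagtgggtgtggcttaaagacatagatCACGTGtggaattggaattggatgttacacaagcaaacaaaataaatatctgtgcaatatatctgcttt
ADH1C (chr4:99352747-99352996, minus strand): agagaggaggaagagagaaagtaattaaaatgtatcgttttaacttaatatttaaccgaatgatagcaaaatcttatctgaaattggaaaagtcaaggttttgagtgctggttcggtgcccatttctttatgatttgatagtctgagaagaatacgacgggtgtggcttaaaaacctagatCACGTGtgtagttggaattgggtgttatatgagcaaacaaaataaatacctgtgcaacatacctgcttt
Among the 30 members with promoter sequence at hand, AKR7A2 and CBR1 had a match on either strand to TGACNNNGC. These are the letters of the antioxidant response element that NRF2 binds. Capitals mark the matches.
AKR7A2 (chr1:19312147-19312396, minus strand): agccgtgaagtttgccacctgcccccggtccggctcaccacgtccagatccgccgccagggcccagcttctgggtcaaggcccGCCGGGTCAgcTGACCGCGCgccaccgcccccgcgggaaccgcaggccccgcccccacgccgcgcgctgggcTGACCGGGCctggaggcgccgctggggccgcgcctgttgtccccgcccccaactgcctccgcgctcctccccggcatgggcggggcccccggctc
CBR1 (chr21:36069774-36070023, plus strand): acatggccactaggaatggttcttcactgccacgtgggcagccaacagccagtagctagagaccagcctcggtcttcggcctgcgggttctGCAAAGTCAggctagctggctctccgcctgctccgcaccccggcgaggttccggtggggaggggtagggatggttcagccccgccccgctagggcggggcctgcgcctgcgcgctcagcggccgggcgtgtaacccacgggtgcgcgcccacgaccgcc

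Motifs were searched on both strands in windows of 300 bases, 250 before and 50 after the RefSeq start. Such windows were at hand for 30 of the 36 members. AKR1B10, ALDH16A1, ALDH1L2, ALDH2, ALDH3A1 and CBR3 had no such sequence and were not searched. TGACNNNGC was found in 2 of the 30 (6.67%) and in 13.3% of 35116 promoters of that length. AKR7A2, with 3 matches, fell, and CBR1, with 1 match, rose. ACGTG was in 9 of 30 members (30%) and 21.4% of all promoters. TGATGNAA, the element bound by ATF4 with C/EBP factors, was in 2 of 30 (6.67%), ADH6 and AKR1D1, and in 3.62% of all promoters. TGACCTTTG, letters of the kind that HNF4 binds, was in 0 of 30 and in 0.407% of all promoters. A match describes letters in this window only.

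Most of the enzymes were lower with the ARD1 plasmid. Of the 36 members, 30 had enough counts to be tested and 25 of these (83.3%) changed in edgeR's quasi-likelihood test at an adjusted p under 0.05, where 64.6% of the 15816 genes tested did. The split was uneven, with 21 members lower (70%) and 4 higher (13.3%), against 32.2% and 32.4% of all genes tested. A fall of at least 1 on the log2 scale was seen in 11 members (36.7%) and a rise of that size in 2, against 11.8% and 9.71% of all genes. The median log2 fold change of the 30 was -0.79, and that of all genes tested was 0.03. The 3 control libraries lay wholly apart from the 3 ARD1 libraries in all 25 that changed and in 0 of the other 5, a pattern that 69.6% of all genes showed.

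The number of rises moved more than the number of falls with the scaling and with the libraries used, while a minimum log2 change of 1, given above, cut both. With library totals in place of TMM, 9 members were higher and 20 lower, and the all-gene median went up from 0.03 to 0.30. The share of higher genes among all that changed then moved from 50.2% to 68.6%. With GC and length trends removed, 7 were higher and 19 lower. Without control replicate 1, which was the highest control library for several members, 7 were higher and 21 lower.

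**Figure D1:**
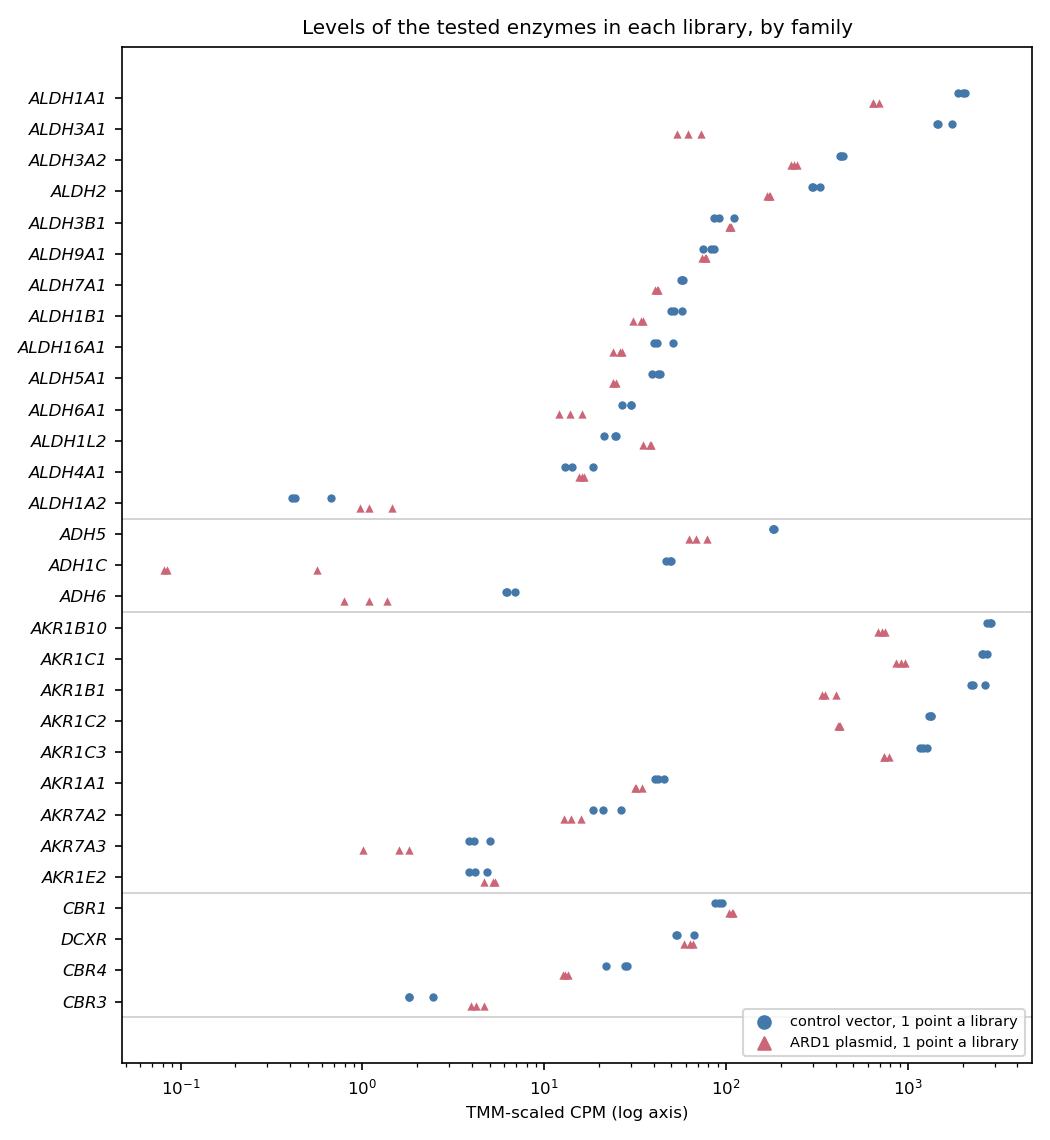
TMM-scaled CPM on a log axis for the 30 tested enzymes, in 4 blocks by family (ALDH, ADH, AKR, then CBR and DCXR), with 1 circle for each control library and 1 triangle for each ARD1 library. The genes at the top of the ALDH and AKR blocks were the highest in the controls and lay lower in all ARD1 libraries, and ADH1C fell from about 50 CPM to below 1 CPM.

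The members that took the most counts all fell. AKR1B10, AKR1C1, AKR1B1, ALDH1A1, ALDH3A1, AKR1C2 and AKR1C3, the 7 with the highest control CPM, made up 89.1% to 89.4% of the members' counts in a control library and 77.9% to 78.2% in an ARD1 library. Together the 36 members took 1.398% to 1.43% of all counts in a control library and 0.532% to 0.558% in an ARD1 library. These shares are of raw counts and use no scaling. Of 10 members with a control mean of at least 100 CPM, 10 fell, with a median log2 fold change of -1.56. Among all 2253 genes at that level 55.2% fell and the median was -0.25. From 10 to 100 CPM, 9 of 15 members fell and 2 rose, where 33.9% of all genes at that level fell and 35.8% rose. Under 10 CPM 2 of 5 fell and 2 rose, where 22% and 33.1% of all genes did.

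Summed by family, the ALDH genes were at 4852, 4662 and 4625 CPM in the controls and 1482, 1510.2 and 1517 CPM with ARD1. The ADH genes went from 237, 237 and 238 to 63.8, 79.6 and 70.1 CPM and the AKR genes from 10628, 10304 and 10333 to 3132, 3327 and 3201 CPM. The control means were 3.14, 3.34 and 3.24 times the ARD1 means in these 3 families. For the carbonyl and xylulose reductases the sums were 185, 170.2 and 174 and 187, 189.7 and 184 CPM, which is close to level. With 3 libraries against 3 the exact two-sided permutation test cannot go below p = 0.1, which the first 3 families reached and the last (p = 0.2) did not.

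**Figure D2:**
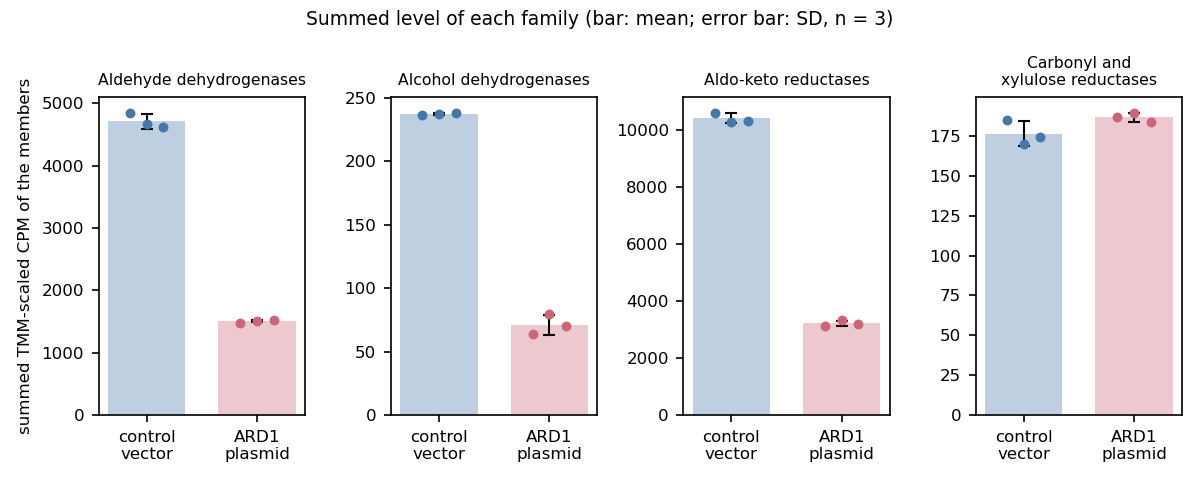
Summed TMM-scaled CPM of each family's members in control vector and ARD1 plasmid libraries, each panel with its own axis from 0; bars are means, error bars SD (n = 3), points single libraries. The ALDH, ADH and AKR sums fell to about 0.3 of the control mean (0.319, 0.2996 and 0.309), and the ARD1 mean of the carbonyl and xylulose reductases was 1.06 times the control mean.

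Both tested retinaldehyde-oxidising enzymes changed, in opposite directions. ALDH1A1 (chromosome 9 at 72900662 to 73080442, minus strand, GRCh38), the main cytosolic enzyme that turns retinaldehyde into retinoic acid, was at 1878, 2052 and 2016 CPM in the controls and 646, 639 and 689.9 CPM with ARD1, 3.01-fold lower (log2 fold change -1.59, SE 0.0703, adjusted p = 8.23e-11). ALDH1A2, which makes retinoic acid in the embryo, was close to the detection floor, at 0.409, 0.428 and 0.673 CPM in the controls and 1.09, 1.46 and 0.967 CPM with ARD1 (log2 fold change 1.21, SE 0.351, adjusted p = 0.00725). The groups did not overlap for either gene. ALDH1A3, the remaining member of this subfamily, had 2 counts in all control libraries together and 2 in all ARD1 libraries and was not tested. Exons of other genes on the opposite strand cover 27.5% of the ALDH1A3 exon bases.

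Both mitochondrial acetaldehyde-oxidising enzymes fell. ALDH2, which clears most of the acetaldehyde made from ethanol, was at 327, 296 and 301 CPM and then 173, 172 and 169 CPM (log2 fold change -0.85, SE 0.0677, adjusted p = 5.36e-08). ALDH1B1, its close relative, went from 57.5, 51.99 and 49.9 to 34.1, 34.9 and 30.6 CPM (log2 fold change -0.68, SE 0.0869, adjusted p = 7.48e-06). Every ARD1 library was below every control library for both. Per kilobase of annotated exon ALDH2 was the higher of the 2 in the controls, at 31.7 against 16.8 CPM per kb.

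ALDH1L2, the mitochondrial enzyme that oxidises 10-formyltetrahydrofolate, rose. Its level was 21.3, 24.6 and 24.7 CPM in the controls and 38.4, 35.1 and 38.6 CPM with ARD1 (log2 fold change 0.67, SE 0.0914, adjusted p = 1.51e-05). ALDH1L1, its cytosolic counterpart, had 0 counts in the controls and 6 in all ARD1 libraries together and was not tested. Of 14 other folate enzymes, 10 were tested: 7 fell (70%) and 2 rose (20%), where 32.2% and 32.4% of all genes tested did. SHMT2, the mitochondrial serine hydroxymethyltransferase, went from 470.3 ± 60.5 to 194 ± 6.16 CPM (mean ± SD of 3 libraries, as for all such pairs of values below) and fell by 1.28 on the log2 scale. MTHFD2L (1.04), a mitochondrial methylenetetrahydrofolate dehydrogenase, was among those that rose. MTHFD2, a paralogue of MTHFD2L, was listed at 0.139 and 0.106 CPM. How the authors' counting treated overlapping or repeated sequence is unknown here, so whether a level near 0 in this table means little transcript was not tested.

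The ALDH3 enzymes, which oxidise medium-chain, fatty and lipid-derived aldehydes, included the largest fall among the ALDH genes. ALDH3A1 (chromosome 17 at 19737984 to 19748943, minus strand), which oxidises aromatic and medium-chain aldehydes such as 4-hydroxynonenal, was at 1750.1, 1442 and 1464 CPM in the controls and 61.7, 72.5 and 54.02 CPM with ARD1, 24.7-fold lower (log2 fold change -4.63, SE 0.117, adjusted p = 3.57e-13). ALDH3A2, the fatty aldehyde dehydrogenase of the endoplasmic reticulum, fell by less, from 421, 437 and 430.5 to 227, 247 and 236 CPM (log2 fold change -0.86, SE 0.06598, adjusted p = 3.36e-08). Per kilobase of exon ALDH3A1 was the higher of the 2 in the controls, at 396 against 66.5 CPM per kb, and the lower with ARD1, at 16.02 against 36.6. Within a library the log2 ratio of ALDH3A1 to ALDH3A2 was 1.85 ± 0.18 in the controls and -1.92 ± 0.18 with ARD1 (SD, n = 3).

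ALDH3B1, a membrane-bound enzyme for lipid-derived aldehydes, did not pass. It was at 111, 90.9 and 86.3 CPM in the controls and 105, 106 and 103 CPM with ARD1 (log2 fold change 0.13, adjusted p = 0.225). Control replicate 1 was the highest of the 6 libraries. Without that library ALDH3B1 passed as higher (log2 fold change 0.23, adjusted p = 0.000176), as it did with library totals (0.39) and with GC and length trends removed (0.39).

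Of the 6 ALDH enzymes of amino acid breakdown and carnitine synthesis, 5 were tested: 3 fell and 2 did not pass. ALDH6A1, the methylmalonate semialdehyde dehydrogenase of valine breakdown, went from 30.1, 29.99 and 26.8 to 12.1, 16.2 and 13.9 CPM (log2 fold change -1.04, SE 0.112, adjusted p = 1.33e-06). ALDH5A1, which oxidises the succinic semialdehyde left from GABA, went from 43.4, 42.01 and 39.3 to 23.8, 24.9 and 23.7 CPM (log2 fold change -0.78, SE 0.0834, adjusted p = 1.14e-06). ALDH7A1, of lysine breakdown, went from 56.7, 58.3 and 56.98 to 40.7, 41.5 and 42.3 CPM (log2 fold change -0.47, SE 0.0732, adjusted p = 5.65e-05). The groups were apart in all 3, and ALDH7A1 fell by the least. Opposite-strand exons of other genes cover 10.03% of ALDH6A1's exon bases.

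ALDH9A1, which acts in carnitine synthesis, was at 85.3, 82.2 and 74.8 CPM in the controls and 76.7, 77.8 and 74.04 CPM with ARD1 and did not pass (log2 fold change -0.08, adjusted p = 0.337). Its direction turned with library totals, where it passed as higher (0.18, adjusted p = 0.0276). ALDH4A1, which completes proline breakdown to glutamate, did not pass either, at 18.4, 12.9 and 14.2 CPM and 15.6, 16.1 and 16.5 CPM (0.08, adjusted p = 0.601). Control replicate 1 was again the highest library, and without it ALDH4A1 passed as higher (0.23, adjusted p = 0.0416). With library totals (0.35) and with GC and length trends removed (0.41) it passed as higher too. Of ALDH4A1 exon bases, 41.1% overlap exons of another gene on the same strand, so its counts are uncertain to that extent. ALDH8A1, an enzyme of tryptophan breakdown, had 2 counts in all control libraries together and 1 in all ARD1 libraries.

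Genes that work beside these ALDH enzymes fell more often than they rose. In branched-chain amino acid and beta-alanine breakdown 14 of 23 tested genes were lower and 3 higher, the median being -0.36. BCKDK, the kinase that restrains branched-chain ketoacid dehydrogenase, fell from 87.3 ± 14.6 to 18.2 ± 0.743 CPM (-2.26) and PPM1K, the phosphatase that opposes it, rose from 1.82 ± 0.274 to 6.86 ± 1.04 CPM (1.91). HIBADH, a step just upstream of ALDH6A1 in valine breakdown, fell (-1.27) and the transaminase BCAT1 rose (0.48). In proline, GABA, lysine and tryptophan breakdown 9 of 16 fell and 2 rose, the median being -0.31. QPRT, which feeds the tryptophan product quinolinate into NAD+ synthesis, fell from 349.7 ± 35.1 to 87.4 ± 2.401 CPM (-2.001), the ornithine aminotransferase OAT fell (-1.48), and AFMID (0.52) and AADAT (0.71), both of tryptophan breakdown, rose. The shares that fell, 60.9% and 56.25%, stand beside 32.2% of all genes tested. Those that rose, 13.04% and 12.5%, stand beside 32.4%.

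ALDH16A1, an unusual member of the family whose substrate is unclear, went from 51.3, 41.5 and 40.2 to 26.8, 25.98 and 23.8 CPM (log2 fold change -0.80, SE 0.102, adjusted p = 7.63e-06). A grouping of 7 members that act in mitochondria (ALDH2, ALDH1B1, ALDH1L2, ALDH4A1, ALDH5A1, ALDH6A1 and CBR4) was made after the values were seen. It is not a full list of such members. Of the 7, 5 fell, 1 rose and 1 did not pass, with a median of -0.78. Among all genes tested 32.2% fell and 32.4% rose. Among all 30 tested members, from which the grouping was drawn, 70% fell and 13.3% rose, so these counts show nothing particular to mitochondria.

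All 3 tested alcohol dehydrogenases fell, and ADH1C had the largest fold change of all 30 tested members. ADH1C (chromosome 4 at 99336492 to 99353027, minus strand), a class I enzyme that oxidises ethanol, was at 48.9, 46.6 and 49.97 CPM in the controls and 0.0837, 0.562 and 0.0806 CPM with ARD1 (log2 fold change -7.56, SE 0.249, adjusted p = 4.31e-12), or 3168 counts against 19. Of those 19 counts, 15 were in ARD1 replicate 2, and without that library the log2 fold change was -9.11. The size of the fall therefore rests on very few counts, while its direction was the same in every alternative run. ADH1B, the paralogue with the promoter printed above, had 4 counts in all control libraries and 0 in the ARD1 libraries.

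The coding sequences of ADH1B and ADH1C were 95.7% identical, and 21.3% of the 50-base windows of ADH1B occur unchanged in ADH1C. ADH1A and ADH1C were 93.9% identical. In the annotation, exons of ADH1B on the same strand cover 5.54% of the exon bases of ADH1C. With the ADH1B and ADH1C rows summed the log2 fold change was -7.56 (SE 0.248).

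ADH5, the class III enzyme that oxidises formaldehyde bound to glutathione and reduces S-nitrosoglutathione, had the highest level of the ADH genes per kilobase of exon in both groups, ahead of ADH1C in the controls (37.5 against 26.1 CPM per kb). Its level was 181, 184 and 182 CPM in the controls and 62.6, 78.2 and 68.6 CPM with ARD1, 2.61-fold lower (log2 fold change -1.38, SE 0.0824, adjusted p = 2.15e-09). ADH6, a class V enzyme, went from 6.91, 6.18 and 6.24 to 1.09, 0.787 and 1.37 CPM (log2 fold change -2.58, SE 0.207, adjusted p = 5.66e-08). ADH4, a class II enzyme, had 4 counts in all control libraries and 1 in all ARD1 libraries and was not tested. Nearly all ADH counts thus came from ADH5 and ADH1C in the controls and from ADH5 with ARD1.

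Of 6 further genes of ethanol, acetate and formaldehyde handling, 5 fell (83.3%) and 0 rose, where 32.2% and 32.4% of all genes tested did. ACSS3, a mitochondrial acyl-CoA synthetase for short-chain acids, fell from 133 ± 13.9 to 29.3 ± 0.436 CPM (-2.18), and catalase (CAT), which can also oxidise ethanol, from 167 ± 8.61 to 75.3 ± 1.19 CPM (-1.15). ESD, which hydrolyses the S-formylglutathione that ADH5 makes, was among the 5, at -0.94. CYP2E1, the ethanol-oxidising cytochrome, was under 1 CPM in both groups' means and did not pass (adjusted p = 0.0688).

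**Figure D3:**
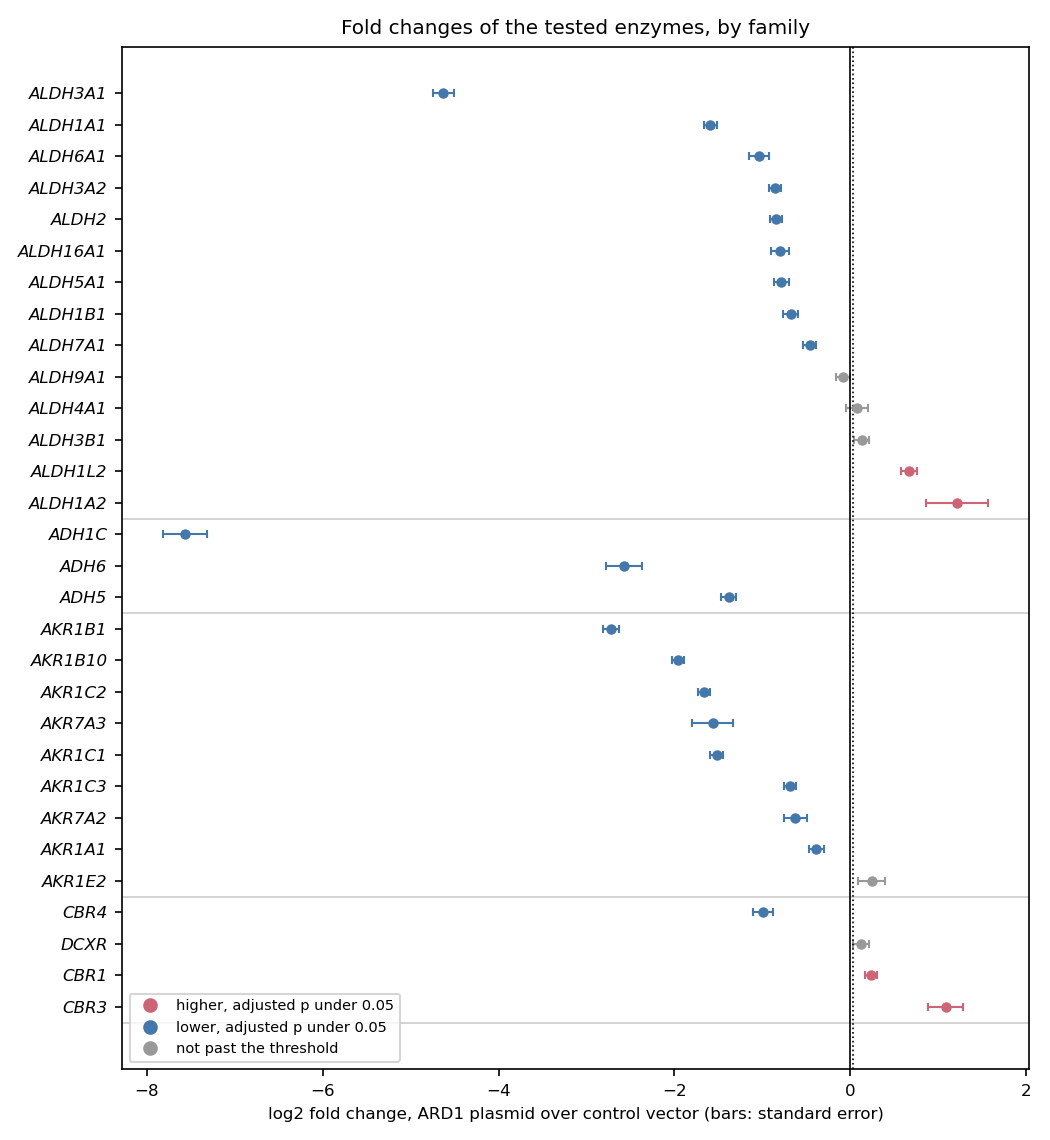
Log2 fold change (ARD1 plasmid over control vector) of the 30 tested enzymes in 4 blocks by family, with standard errors; red points rose, blue points fell and grey points did not pass an adjusted p of 0.05. The solid line is 0 and the dotted line is the median of all genes tested, 0.03; 21 points are blue, 4 red and 5 grey.

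Of the 9 tested aldo-keto reductases 8 fell and 1 did not pass. AKR1B10, which reduces retinaldehyde and other aldehydes, was at 2827, 2732 and 2849.5 CPM in the controls and 719, 752 and 688 CPM with ARD1, 3.895-fold lower (log2 fold change -1.96, SE 0.0695, adjusted p = 9.23e-12). AKR1B1, the aldose reductase that turns glucose into sorbitol, went from 2658, 2275 and 2211 to 348, 399.8 and 335 CPM, 6.599-fold lower (log2 fold change -2.72, SE 0.0928, adjusted p = 5.97e-12). Neither gene's groups came near each other. Per kilobase of exon AKR1B10 was the highest of all 36 members in both groups, at 1607 and 413 CPM per kb, and it was also the highest per kilobase of the longest annotated transcript. ALDH1A1 and AKR1B1 came next in the controls, at 696 and 651 CPM per kb of exon, and they change places when the longest transcript sets the length.

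AKR1A1, the general aldehyde reductase, fell by the least of the 8, from 45.5, 42.01 and 40.4 to 31.7, 31.8 and 34.3 CPM (log2 fold change -0.39, SE 0.0837, adjusted p = 0.000879). It no longer passed with library totals (-0.12, adjusted p = 0.178), nor once GC and length trends were taken out (-0.14, adjusted p = 0.0641, with adjusted p from 4.36e-05 to 0.178 over all settings tried). The polyol and sugar genes around AKR1B1 included SORD, the sorbitol dehydrogenase that acts on its product, at -1.35. Of 9 tested genes in that list 5 fell (55.6%) and 2 rose (22.2%), where 32.2% and 32.4% of all genes tested did. The glycerate kinase GLYCTK fell from 142 ± 6.02 to 16.3 ± 1.02 CPM (-3.13) and the UDP-glucose dehydrogenase UGDH from 987 ± 79.3 to 484 ± 2.16 CPM (-1.03), while the xylulokinase XYLB (1.13) and the glyoxalase HAGH (0.38) rose.

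The steroid- and prostaglandin-reducing AKR1C enzymes fell to different degrees. AKR1C1, which inactivates progesterone at carbon 20, was at 2562, 2724 and 2585 CPM in the controls and 863, 920.1 and 961 CPM with ARD1 (log2 fold change -1.52, SE 0.0707, adjusted p = 1.39e-10). AKR1C2, which inactivates dihydrotestosterone at carbon 3, was at 1332, 1301 and 1341 and 416, 413 and 425 CPM (log2 fold change -1.66, SE 0.06502, adjusted p = 2.38e-11). AKR1C3, which makes testosterone from androstenedione and reduces prostaglandins, was at 1166, 1204 and 1276 and 735, 789.6 and 735 CPM (log2 fold change -0.69, SE 0.0685, adjusted p = 5.50e-07). AKR1C3 fell by the least of the 3, and its log2 ratio to AKR1C1 within a library went from -1.11 ± 0.08 to -0.28 ± 0.09 (SD, n = 3), with no overlap between the groups.

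The sequences limit how far these genes can be told apart. The AKR1C1 and AKR1C2 coding sequences, each 972 bases, were 98.05% identical, and 51.8% of the 50-base windows of AKR1C1 occur unchanged in AKR1C2. For AKR1C1 and AKR1C3 the identity was 91.9% and the share of windows 14.6%. With the 3 rows summed, the level was 5061, 5229 and 5202 CPM in the controls and 2014, 2123 and 2121 CPM with ARD1 (log2 fold change -1.31, SE 0.0674, adjusted p = 4.34e-10). This sum does not change with how counted reads are shared out among the 3. Reads left out of the counting because they match more than 1 gene would be missing from it too, and whether any were is unknown here. AKR1B10 and its neighbour AKR1B15 summed to a log2 fold change of -1.92, close to that of AKR1B10 alone.

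AKR1D1, the 5-beta-reductase of bile acid synthesis, had 5 counts in all control libraries and 1 in all ARD1 libraries. AKR1E2, which reduces 1,5-anhydrofructose, was at 4.18, 3.85 and 4.85 CPM in the controls and 5.36, 5.21 and 4.67 CPM with ARD1 and did not pass (0.24, adjusted p = 0.192). It passed as higher with library totals (0.51). In the list of other bile acid and steroid enzymes 12 of 15 tested genes were lower (80%) and 1 was higher (6.67%), the median being -1.16. Among all genes tested 32.2% were lower and 32.4% higher. HSD3B7, an early enzyme of bile acid synthesis, fell from 78.6 ± 10.1 to 19.6 ± 0.406 CPM (-2.01), the sterol 27-hydroxylase CYP27A1 fell from 116 ± 9.38 to 38.6 ± 4.64 CPM (-1.58), and the steroid 5-alpha-reductase SRD5A1 rose (0.41).

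Both AKR7 genes, which reduce succinic semialdehyde and the dialdehyde of aflatoxin, fell. AKR7A2 was at 26.4, 18.5 and 21.01 CPM in the controls and 12.8, 14.02 and 15.99 CPM with ARD1 (log2 fold change -0.63, SE 0.131, adjusted p = 0.000707), and AKR7A3 at 5.05, 3.85 and 4.13 and 1.59, 1.01 and 1.81 CPM (log2 fold change -1.57, SE 0.232, adjusted p = 3.14e-05). AKR7A2 missed the threshold once GC and length trends were taken out (-0.23, adjusted p = 0.0542, with adjusted p from 1.08e-05 to 0.0542 over all settings tried). Their coding sequences were 85.1% identical, and the rows summed gave -0.74 (SE 0.127). AKR7L, a near copy of AKR7A3 at 95.4% identity, did not pass (0.16, adjusted p = 0.653).

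Of the 4 carbonyl and xylulose reductases 2 rose, 1 fell and 1 did not pass. CBR1, which reduces quinones, prostaglandins and anthracycline drugs, was at 94.5, 87.02 and 91.3 CPM in the controls and 104, 109 and 107 CPM with ARD1, 1.17-fold higher (log2 fold change 0.23, SE 0.0694, adjusted p = 0.00865). It missed the threshold without control replicate 2 (0.18, adjusted p = 0.0884, with adjusted p from 1.09e-05 to 0.0884 over all settings tried). CBR3, its paralogue on the same chromosome, rose by more, from 2.46, 1.81 and 1.796 to 4.69, 3.94 and 4.23 CPM (log2 fold change 1.08, SE 0.195, adjusted p = 0.0002). Per kilobase of exon CBR3 stayed below CBR1 with ARD1, at 3.67 against 43.6 CPM per kb.

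Of CBR3 exon bases, 42.2% lie opposite exons of CBR3-AS1, which rose as well (1.12). The library kit is directional but the strand setting of the counting is unknown here, so reads of the 2 genes cannot be told apart with certainty. CBR1 likewise has 18.9% of its exon bases opposite other exons. CBR4, a mitochondrial reductase of fatty acid synthesis, fell from 21.8, 28.7 and 27.7 to 12.7, 13.4 and 13.1 CPM (log2 fold change -0.99, SE 0.112, adjusted p = 2.11e-06).

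DCXR, the dicarbonyl and xylulose reductase, was at 66.5, 52.7 and 53.5 CPM in the controls and 65.5, 63.1 and 58.9 CPM with ARD1, overlapping groups that did not pass (0.12, adjusted p = 0.277). Control replicate 1 was its highest library. Without it DCXR passed as higher (0.22, adjusted p = 0.00144), as it did with GC and length trends removed (0.65) and with library totals (0.39).

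The ratio of 2 paralogues within a library, which the scaling of libraries hardly moves, was compared for 8 pairs. The 8 were a chosen set and leave out others, such as AKR1C2 over AKR1C1. In 7 pairs the ratios of the groups did not overlap, which gives p = 0.1 in an exact two-sided permutation test, the smallest that 3 against 3 libraries allow (0.114 after Benjamini-Hochberg adjustment over the 8 pairs). How often the ratios of other gene pairs lie apart was not worked out. Of all single genes tested, 69.6% had groups that did not overlap, so pairs that lie apart may be common. The difference on the log2 scale, ARD1 minus control, was -3.77 for ALDH3A1 over ALDH3A2, -1.11 for ADH6 over ADH5 and -0.91 for AKR7A3 over AKR7A2. It was 0.83 for CBR3 over CBR1, 0.83 for AKR1C3 over AKR1C1, 0.76 for AKR1B10 over AKR1B1 and 0.17 for ALDH1B1 over ALDH2. The remaining pair, ALDH1L2 over ALDH1L1, has almost no counts in its second gene. A pseudocount of 0.1 CPM was added to each value.

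Several members lie side by side in the genome, in clusters left by gene duplication (GRCh38, GENCODE 29). The ADH genes lie on the minus strand of chromosome 4, from ADH5 at 99070978 to ADH1C, which ends at 99353027. All 3 tested ADH genes there fell. METAP1, within 100 kb of ADH5, fell slightly (-0.30), and a noncoding gene on the opposite strand, ENSG00000246090, rose (1.45) from 0.694 to 1.89 CPM. The AKR1C genes lie on chromosome 10, from AKR1E2 at 4786629 to AKR1C3, which ends at 5107686. Among the 3 tested neighbours ENSG00000224251, opposite AKR1C2, fell (-0.50), AKR1C8 fell (-2.02) and AKR1C4 did not pass (-0.21, adjusted p = 0.332).

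On chromosome 7, AKR1B1 (134442350 to 134459284, minus strand) and AKR1B10 (134527592 to 134541408, plus strand) have AKR1B15 (-0.68) and LINC03060 (-0.91) beside them, and all 4 fell. The third tested neighbour, ENSG00000229177, did not pass (1.17, adjusted p = 0.0722). Around the AKR7 pair on chromosome 1, 2 of 7 tested neighbours fell and 2 rose, with MRTO4 at -0.74 and SLC66A1, next to AKR7A2, at 0.62. Around ALDH3A1 and ALDH3A2 on chromosome 17, 4 of 5 tested neighbours fell and 1 rose. ENSG00000264785, which lies opposite the end of ALDH3A1, fell from 0.858 to 0.0639 CPM (-3.59). Around CBR1 and CBR3 on chromosome 21, 3 of 5 tested neighbours rose and 0 fell, with DOP1B, next to CBR3, rising from 5.75 to 22.7 CPM (1.98). Of all genes tested 64.6% changed, so a changed neighbour is common.

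**Figure D4:**
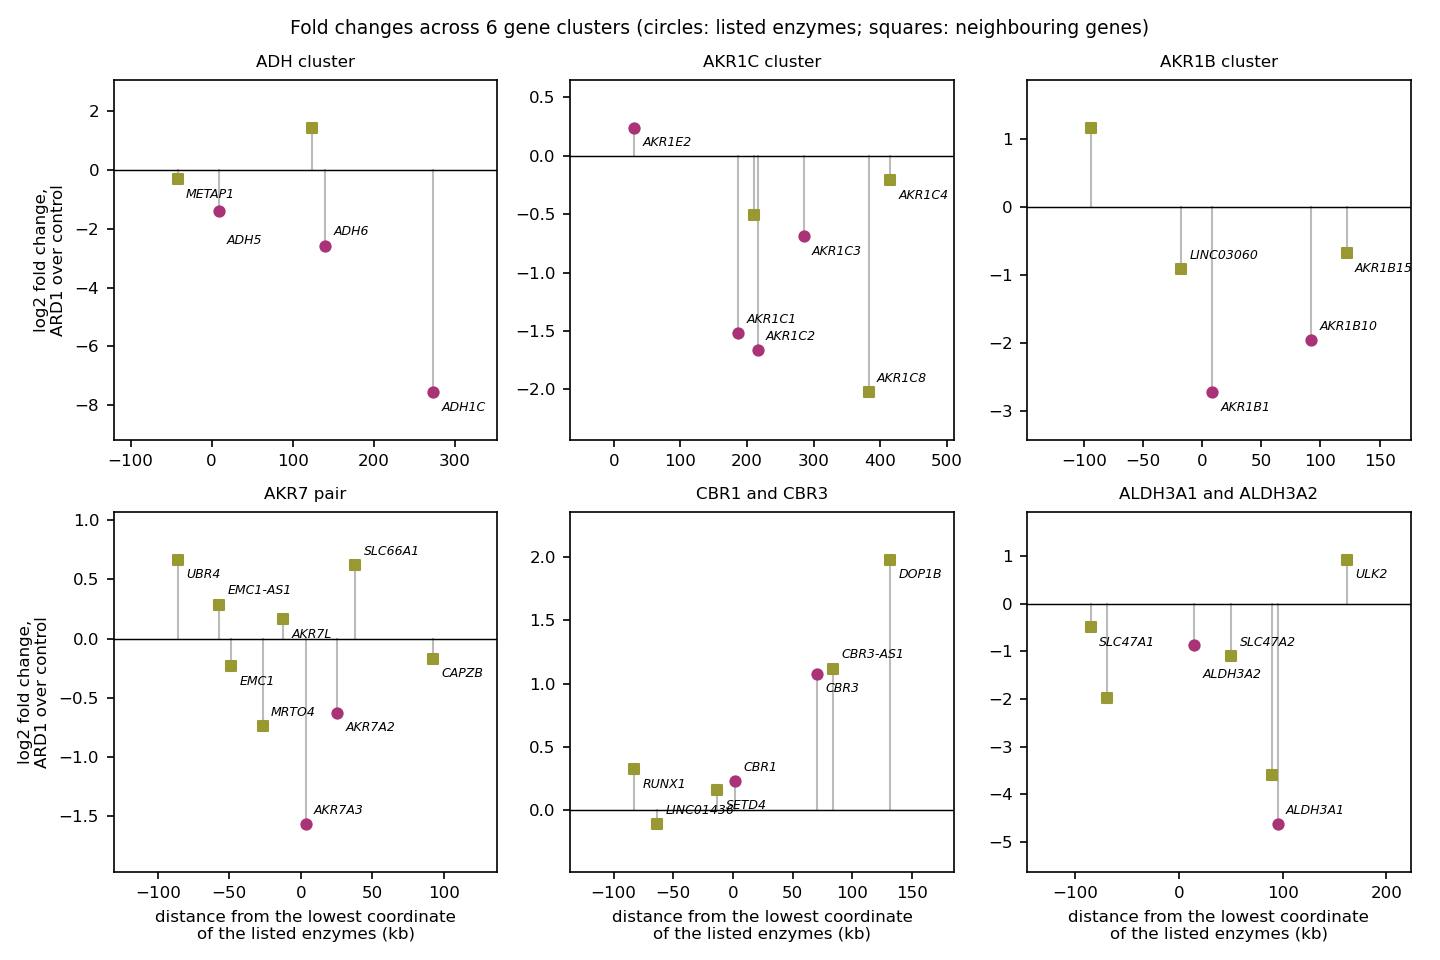
Log2 fold change (ARD1 over control) of tested genes in 6 gene clusters, against the distance in kb from the lowest coordinate of the listed enzymes; each gene stands at the middle of the part of it that lies within 100 kb of the cluster, circles are listed enzymes and squares neighbours. ADH1C lies far below the other genes of its cluster, and CBR3, CBR3-AS1 and DOP1B are higher together.

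Other members of the same families, outside the list, were mixed. Of 11, 8 were tested: 3 fell (37.5%), 1 rose (12.5%) and 4 did not pass, where 32.2% of all genes tested fell and 32.4% rose. AKR1B15 fell from 56.2 ± 2.25 to 35.1 ± 0.477 CPM (-0.68) and AKR1C8 from 2.18 ± 0.502 to 0.534 ± 0.106 CPM (-2.02), and the potassium channel subunit KCNAB3, a distant relative of the reductases, rose from 0.416 ± 0.136 to 1.91 ± 0.223 CPM (2.19).

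The retinoid pathway, which ALDH1A1 and AKR1B10 join, was lower in 13 of 22 tested genes (59.1%) and higher in 3 (13.6%), with a median of -0.36. Of all genes tested 32.2% were lower and 32.4% higher. STRA6, the membrane receptor through which cells take up retinol, fell from 196 ± 15.5 to 42.4 ± 1.11 CPM (-2.21), and CRABP2, which carries retinoic acid to the nucleus, from 186 ± 21.3 to 30.5 ± 2.08 CPM (-2.61). DHRS7, a short-chain dehydrogenase, rose from 21.9 ± 0.9798 to 72.04 ± 2.23 CPM (1.72), as did the retinol carrier RBP4 (1.02). RDH10, which supplies ALDH1A enzymes with retinaldehyde, was at -0.94 and the receptor partner RXRA at -1.003, both past the threshold. These 2 genes were chosen after their values were seen.

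The NRF2 system and the enzymes that supply NADPH, which AKR and CBR enzymes consume, split. Of 21 genes 11 rose (52.4%), 9 fell (42.9%) and 1 did not pass, where 32.4% of all genes tested rose and 32.2% fell. The gene of NRF2 itself, NFE2L2, rose (1.84), and so did the sulfiredoxin SRXN1, from 26.5 ± 1.61 to 98.4 ± 8.17 CPM (1.89), and the cystine exchanger SLC7A11 (1.73). NQO1, a quinone reductase and standard NRF2 target, fell (-1.03), beside the AKR genes. Among NADPH sources the mitochondrial isocitrate dehydrogenase IDH2 fell from 95.3 ± 8.66 to 24.6 ± 1.67 CPM (-1.95), while the cytosolic IDH1 rose (0.53). NFE2L2, NQO1 and IDH1 were named after their values were seen.

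**Figure D5:**
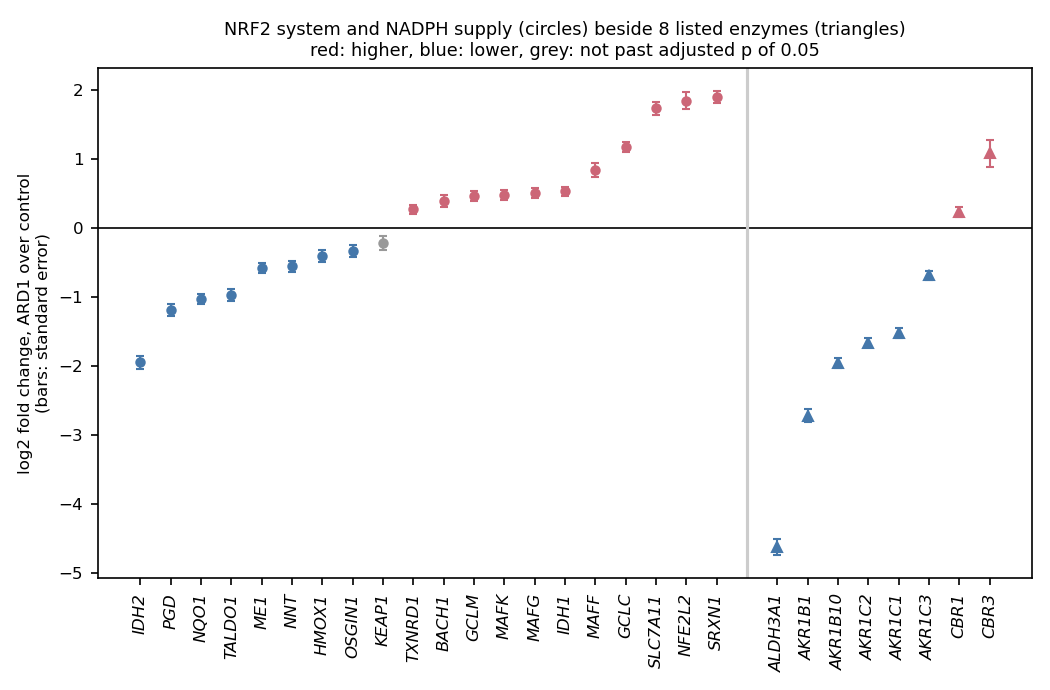
Log2 fold change (ARD1 over control) with standard errors of 20 of the 21 genes of the NRF2 system and NADPH supply (circles) and 8 listed enzymes (triangles), the latter picked after their values were seen; red rose, blue fell, grey did not pass. SRXN1, NFE2L2, SLC7A11 and GCLC are above 1 and IDH2, PGD and NQO1 below -1, and of the 8 enzymes CBR1 and CBR3 alone are above 0.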

How the data were processed

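The authors deposited 1 table of raw, whole-number counts per Ensembl gene, not normalized, per the file headers. Per the labels' protocols, ribosomal RNA was removed and the kit was directional. The submitters' processing notes name cutadapt 4.6, STAR 2.7.11b and GRCh38. For the counting program, its strand setting and annotation, nothing is given in the sources used here. Groups and replicate numbers came from sample titles. Symbols matched 25052 of 25071 identifiers. Genes passing filterByExpr (15816) were scaled by TMM and tested with edgeR 4.0.16 (quasi-likelihood, R 4.3.3) over all 6 libraries, without further covariates. P-values were Benjamini-Hochberg adjusted over all genes tested, with 0.05 as the threshold. Standard errors were derived from the F statistic. Exon lengths, overlaps and coding sequences (longest open reading frame) came from GENCODE 29, promoters from RefSeq GRCh38.p14. DESeq2 1.42.0, limma 3.58.1 (voom) and other settings were alternatives. The fits were also run on simulated data in which few genes changed and rises and falls were equally likely. Here 64.6% of genes tested changed, so that run does not show how the fits behave on these data. Named were all members, NAA10, and from each pathway list up to 2 risen and 2 fallen genes with the smallest p. Some genes of these lists are counted but not reported here by name. Members and lists were chosen with earlier results of these data known. Without molecular identifiers, counting error is all that a floor of 3 counts covers.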

Additional observations from a re-analysis of the deposited data

How the results depend on the processing

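Of the 30 tested members, 22 kept their direction and their side of the threshold in every alternative run other than the minimum log2 change of 1. The other 8 were ALDH3B1, ALDH4A1, ALDH9A1, AKR1A1, AKR1E2, AKR7A2, CBR1 and DCXR. ALDH4A1, which never passed as lower, was at -0.05 without control replicate 2. ALDH9A1 turned from -0.08 to 0.18 with library totals without scaling factors. The count of higher members moved from 4 to 9 with library totals, to 7 with GC and length trends removed (7 also with the replicate block beside it) and to 2 when a change of at least 1 on the log2 scale was also asked for. That minimum left 11 of 21 lower members and 3406 of 10223 genes, since it only removes calls. Leaving out each library in turn gave 3 to 7 higher members, 21 lower members each time and 9271 to 10984 genes. The causes of the other changes were not tested. Upper-quartile and RLE scaling, DESeq2, limma-voom, NAA10 left out of library sizes, no filter and a filter of 1 CPM in 3 libraries gave 4 higher and 21 lower members each. Sample titles give replicate numbers but do not say whether they mark pairs. Deviations of same-numbered libraries correlated at 0.0233, -0.0691 and 0.0720, and not every library correlated best with its own number. These correlations cannot decide whether libraries were paired, because the 3 deviations of a group sum to 0 by construction. With the replicate number as a block, 4 members were higher and 21 lower, and 10293 genes changed. Summed paralogue rows kept their direction and side of the threshold in all alternatives run, which did not include GC and length trends. The 6 members below the filter had 0 to 6 counts over a group. With 3 counts put in for the group at 0, ALDH1L1 (6 counts with ARD1) came out 1.73-fold higher with ARD1. ADH1B (4 counts in the controls) came out 1.54-fold lower with ARD1. These ratios leave out the counting error of the 6 and 4 counts, so they set no lower limit and settle no direction. For ALDH1A3, ALDH8A1, ADH4 and AKR1D1 the 95% counting interval of the ratio included 1. The intervals cover counting error only.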
